A study of Mus musculus with 12 samples.

Results

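The genes described here make cholesterol, control the transcription factor SREBP2 that switches sterol synthesis on, or move and store sterol inside the cell. The list of 29 genes was drawn up by pathway role, and a gene was measured where a probe set carried its symbol and no other. On that rule 26 genes were measured, among 19938 genes in all: 18 of the synthesis enzymes, 5 genes of SREBP2 activation and 3 genes of sterol transport. Acat2, Mbtps2 and Soat1 had no such probe set and are not analysed here.

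The samples were peritoneal macrophages of female mice, flushed from the abdominal cavity, plated and cultured for a short time. The 4 groups were Nfkbiz-/- cells given 1 µg/ml lipopolysaccharide (LPS) for 4 h, wild-type (C57Bl/6) cells given the same LPS, untreated Nfkbiz-/- cells and untreated wild-type cells, with 3 Affymetrix arrays in each. LPS is a bacterial cell wall component that activates macrophages through Toll-like receptor 4, and Nfkbiz encodes IκBζ, a nuclear protein that LPS induces and that modulates NF-κB target genes. The labels give Nfkbiz-/- as a strain without naming the allele, and do not say whether it is lost in all cells or whether the 3 arrays of a group came from separate mice. The p-values therefore reflect how far the arrays of a group lie apart, and that spread may be technical.

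Cholesterol is built from acetyl-CoA through mevalonate, the isoprenoid farnesyl diphosphate, squalene and lanosterol. When sterol in the endoplasmic reticulum is low, SCAP carries the precursor of SREBP2 to the Golgi, where the proteases S1P and S2P release the active factor, which enters the nucleus and raises transcription of nearly all the enzyme genes. When sterol is high, the INSIG proteins hold SCAP and the precursor back. In macrophages this pathway is known to be lowered by oxysterols such as 25-hydroxycholesterol, made by the LPS- and interferon-induced enzyme CH25H.

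SREBP2 is known to act on promoters together with the factor NF-Y, which binds the CCAAT box, and with Sp1, which binds GC boxes. The 250 bases before the transcription start were read from RefSeq (GRCm38.p6) for the 21 measured members that had an entry, of which 15 are enzymes. Fdps, Fdft1, Sqle, Stard4 and Npc1 had none. The windows printed are those of the 4 enzyme genes with an entry that were called lower in the largest number of comparisons, with ties settled by the larger genotype difference with LPS, and of Hmgcs1, which was added after its match to the SREBP element was seen. Hmgcs1 lies at chr13:119690101-119690350 on the plus strand, Mvd at chr8:122443423-122443672 on the minus strand, Idi1 at chr13:8885356-8885605 on the plus strand, Lss at chr10:76531355-76531604 on the plus strand and Msmo1 at chr8:64733579-64733828 on the minus strand. Capitals mark matches on either strand to the SREBP element TCACNCCAC, to the NF-Y box ATTGG, which reads CCAAT in reverse, and to the GC box GGGCGG, which reads CCGCCC in reverse. No printed match overlaps another.
Hmgcs1: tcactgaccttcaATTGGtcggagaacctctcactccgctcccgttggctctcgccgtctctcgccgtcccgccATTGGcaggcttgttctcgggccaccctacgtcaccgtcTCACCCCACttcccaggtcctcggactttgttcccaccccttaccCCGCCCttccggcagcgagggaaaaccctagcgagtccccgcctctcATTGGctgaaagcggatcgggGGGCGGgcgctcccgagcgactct
Mvd: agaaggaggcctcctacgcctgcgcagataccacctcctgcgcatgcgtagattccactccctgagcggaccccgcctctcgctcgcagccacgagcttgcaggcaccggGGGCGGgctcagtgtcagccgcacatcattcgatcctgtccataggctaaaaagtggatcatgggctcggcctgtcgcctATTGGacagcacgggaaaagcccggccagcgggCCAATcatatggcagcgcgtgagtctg
Idi1: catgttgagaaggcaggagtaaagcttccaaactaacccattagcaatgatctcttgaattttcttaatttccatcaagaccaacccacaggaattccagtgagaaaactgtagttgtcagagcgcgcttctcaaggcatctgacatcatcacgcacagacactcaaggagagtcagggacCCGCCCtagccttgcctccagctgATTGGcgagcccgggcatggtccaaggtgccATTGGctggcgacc
Lss: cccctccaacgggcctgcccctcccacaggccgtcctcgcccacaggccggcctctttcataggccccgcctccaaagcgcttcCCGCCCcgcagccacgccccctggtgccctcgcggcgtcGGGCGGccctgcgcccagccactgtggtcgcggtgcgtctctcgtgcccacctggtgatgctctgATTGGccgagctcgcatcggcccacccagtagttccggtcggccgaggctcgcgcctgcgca
Msmo1: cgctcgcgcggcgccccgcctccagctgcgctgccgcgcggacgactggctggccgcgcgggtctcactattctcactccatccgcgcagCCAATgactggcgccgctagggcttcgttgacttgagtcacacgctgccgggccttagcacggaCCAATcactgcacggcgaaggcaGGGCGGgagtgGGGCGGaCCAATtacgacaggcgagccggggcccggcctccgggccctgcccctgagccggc

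Some genes had several windows, and a gene was counted if any of its windows matched. The NF-Y box was present for 19 of the 21 members (90.5%), and for all 15 of the enzymes, against 38.8% of the tested genes with a window and 37.5% of all genes with a window. The GC box was present in 19 of 21 members (90.5%) and in 13 of the 15 enzymes (86.7%), against 49.3% of tested genes and 35.4% of all genes with a window. The exact SREBP element was found in 1 of the 21 (4.76%), Hmgcs1, at 137 to 129 bases before the start, against 1.2% of tested genes and 1.22% of all genes with a window. These are matches of letters in a short window, and binding was not measured.

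The array values were intensities on a linear scale, and every difference below is on the log2 scale from 1 limma fit to all 19938 genes and 12 arrays. The threshold for a call was an adjusted p under 0.05, after Benjamini-Hochberg adjustment over all genes. Apart from a rough reading of the cell type marker lists, intensities of different genes were not compared with each other, since each probe set has its own response. Array medians lay between 110.4 and 118.7, and arrays of 1 group correlated at 0.982 to 0.996 over all genes. The probe set of Nfkbiz itself read 1568, 1335 and 1634 on the Nfkbiz-/- LPS arrays, against 3371, 3786 and 3079.5 on the wild-type LPS arrays, and 267, 286 and 274 on the untreated Nfkbiz-/- arrays, against 463, 431 and 406 on the untreated wild-type arrays. It was lower in Nfkbiz-/- cells with LPS (-1.17, SE 0.10, limma adjusted p = 7.23e-05), still rose with LPS there (2.45), and the sources used here do not say where its probes lie relative to the deletion. The 9 macrophage markers were high on every array (mean log2 intensity 12.06 to 12.30), while the means of the B cell, T cell, mast cell, neutrophil, mesothelial and dendritic cell lists lay between 6.42 and 8.79. The highest of these means was that of the mast cell markers on untreated Nfkbiz-/- array 3.

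LPS lowered 16 of the 26 genes in Nfkbiz-/- cells, where it lowered 23.8% of all genes tested, and 9 in wild-type cells, where it lowered 18.5%. With LPS 12 of the 26 genes were lower in Nfkbiz-/- than in wild-type cells, where 4.87% of all genes were, and none was higher. The count of 12 was 5 without wild-type LPS array 3. Before LPS no member differed between the genotypes at the threshold, where 0.0351% of all genes were higher and 0.0401% lower. The difference of the LPS responses between the genotypes, tested directly, passed the threshold for none of the 26. The genes lower in Nfkbiz-/- cells after LPS include 9 of the 18 enzymes, among them HMG-CoA synthase (Hmgcs1), squalene epoxidase (Sqle), lanosterol synthase (Lss) and the C4-demethylation enzymes Msmo1 and Hsd17b7. They also include both INSIG genes and the sterol carrier Stard4. The other 9 enzymes were not called, and of these Dhcr7 fell furthest of all members with LPS in both genotypes.

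**Figure D1:**
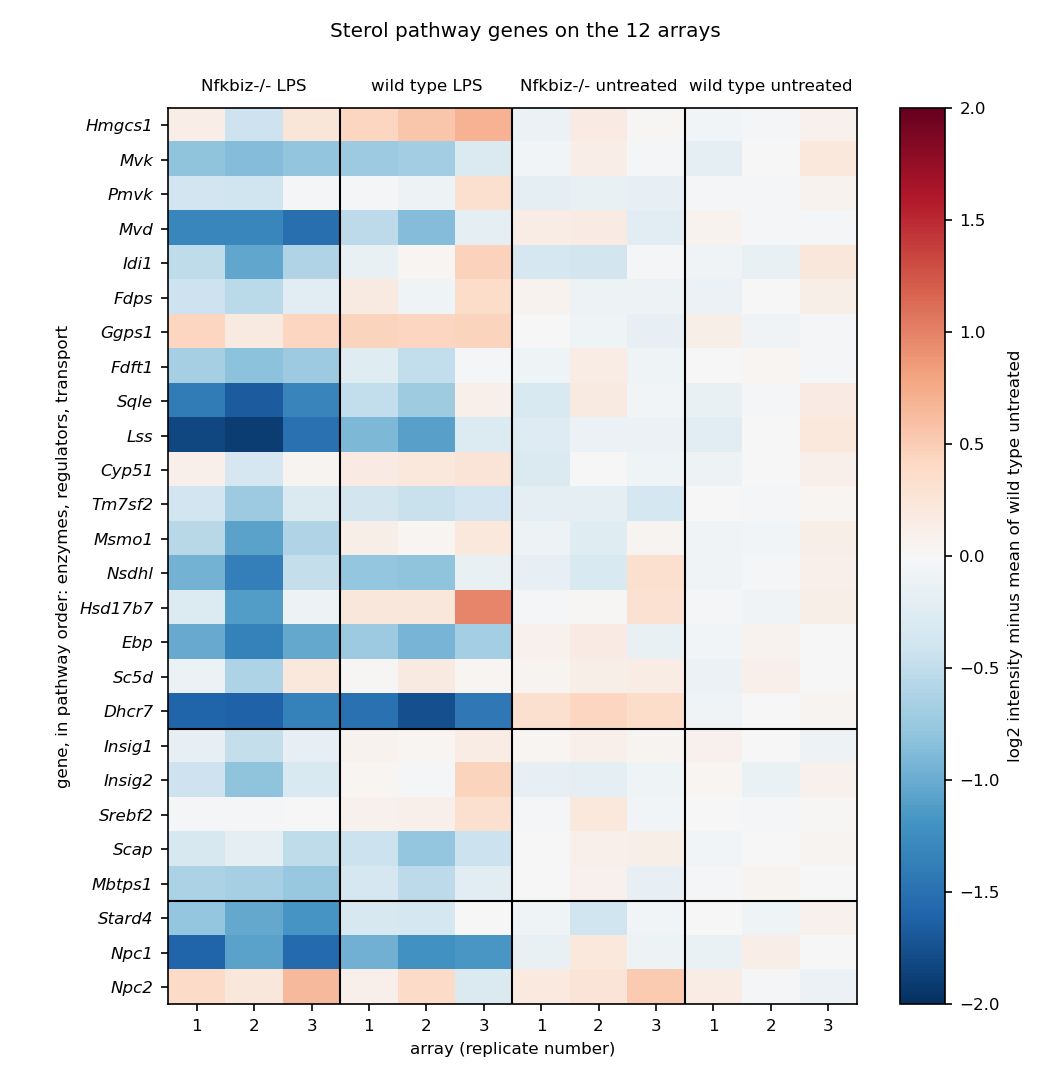
Log2 intensity of the 26 measured genes (rows, enzymes in pathway order, then regulators, then transport genes) on the 12 arrays (columns, 3 per group), minus the mean of the untreated wild-type arrays. Blue is lower and red is higher. The 3 Nfkbiz-/- LPS arrays are the bluest columns for Mvd, Sqle, Lss and Stard4, while Dhcr7, Ebp and Npc1 are blue on all 6 LPS arrays.

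In Nfkbiz-/- cells 16 of 26 members fell with LPS and 1 rose, where 23.8% of all genes tested fell and 21.9% rose. In wild-type cells 9 of 26 fell and 2 rose, where 18.5% of all genes fell and 9.53% rose. The median difference over the 26 members was -0.54 in Nfkbiz-/- cells, beside 0.07 over all genes, and -0.08 in wild-type cells, beside 0.04 over all genes. The Nfkbiz-/- median was -0.39 after quantile normalization, beside 0.05 over all genes, with 14 members called lower. With arrays centred on the 75th percentile it was -0.32, beside 0.28 over all genes, with 12 called lower. The wild-type median was 0.02 after quantile normalization, beside 0.03 over all genes. With arrays centred on the 75th percentile it was 0.07, beside 0.19 over all genes. Its sign thus depended on the scaling, which also moved all genes, and it stayed below the median of all genes. Without wild-type LPS array 3 the wild-type median of the members was -0.20. These are whole-culture measurements, in which fewer cells of a type and less RNA per cell cannot be told apart.

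Of the 18 enzyme genes, 11 fell and 1 rose in Nfkbiz-/- cells, and 6 fell and 2 rose in wild-type cells. Of the 5 SREBP2 activation genes, 3 fell in Nfkbiz-/- cells and 2 in wild-type cells. Of the 3 transport genes, 2 fell in Nfkbiz-/- cells and 1 in wild-type cells. The calls fell in both genotypes for 8 genes (Mvk, Mvd, Lss, Ebp, Dhcr7, Scap, Mbtps1 and Npc1), which is 50% of the 16 called lower in Nfkbiz-/- cells and 88.9% of the 9 in wild-type cells. The overlap was not counted over all genes, so whether that of the members is unusual cannot be said. A further 8 genes (Idi1, Fdps, Fdft1, Sqle, Msmo1, Nsdhl, Insig1 and Stard4) passed the threshold in Nfkbiz-/- cells and not in wild-type cells, and Tm7sf2 passed it in wild-type cells and not in Nfkbiz-/- cells. Passing in one genotype and not in the other is not a test of the difference between them, which is given with the responses of both genotypes. Without Nfkbiz-/- LPS array 3, Tm7sf2 (-0.31) and Sc5d (-0.47) also passed in Nfkbiz-/- cells.

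**Figure D2:**
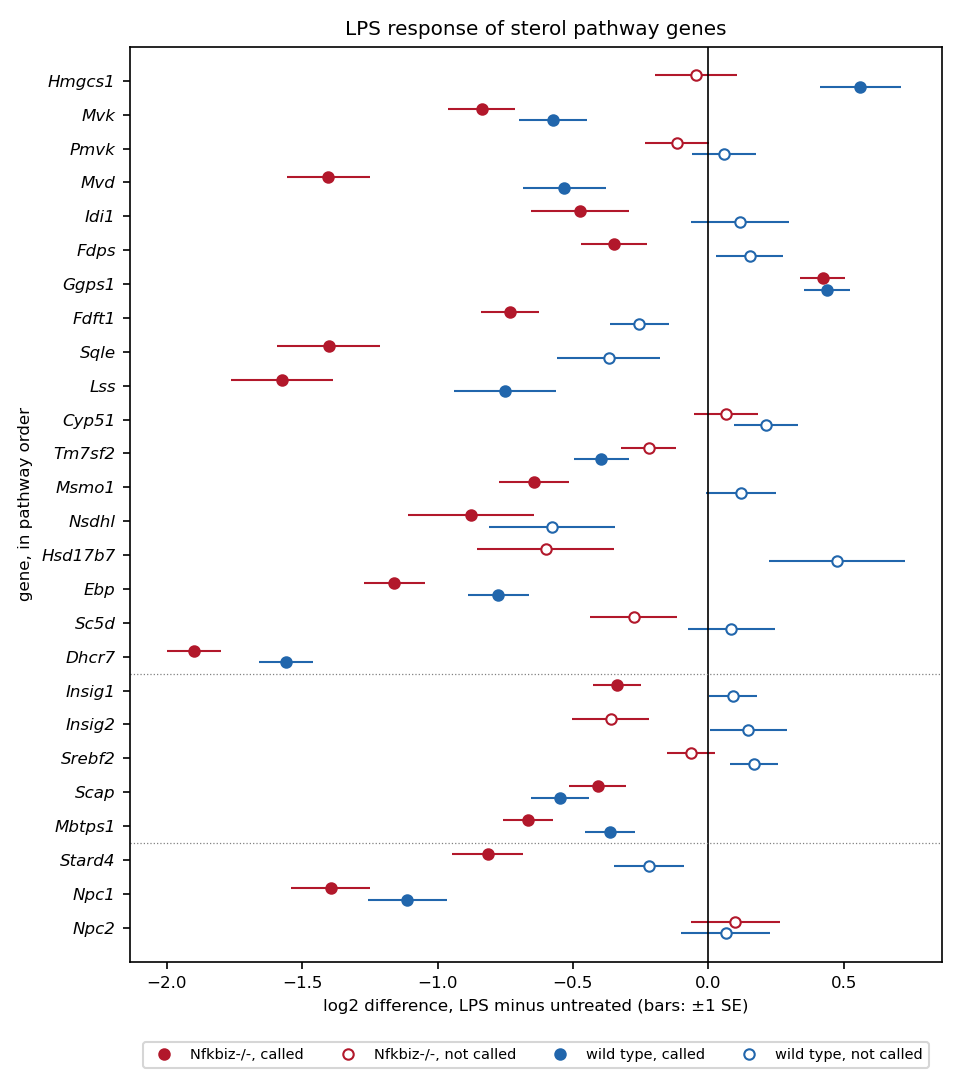
Log2 difference, LPS minus untreated, for the 26 genes in pathway order, in Nfkbiz-/- cells (red) and wild-type cells (blue). Bars are 1 SE on each side, and filled points passed the threshold. Most red points lie left of their blue partners, with Dhcr7 furthest left in both genotypes at -1.90 and -1.56.

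Dhcr7, which reduces 7-dehydrocholesterol to cholesterol, read 117, 115 and 138 on the Nfkbiz-/- LPS arrays, against 441, 476 and 457 on the untreated Nfkbiz-/- arrays. In wild-type cells it read 125, 104 and 131 with LPS, against 337, 353 and 368 untreated. The LPS and untreated arrays did not overlap in either genotype, and the LPS arrays of the genotypes were intermingled. The fall was -1.90 (SE 0.10, limma adjusted p = 1.55e-07) in Nfkbiz-/- cells and -1.56 (SE 0.10, limma adjusted p = 7.25e-07) in wild-type cells. With LPS the genotypes differed by 0.04 (95% interval -0.18 to 0.25).

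Ebp, the sterol isomerase that acts shortly before Dhcr7, averaged 338 ± 43.8 with LPS and 754 ± 81.2 untreated in Nfkbiz-/- cells (SD, n = 3 each), a fall of -1.16 (limma adjusted p = 1.11e-05). In wild-type cells Ebp averaged 431 ± 39.9 with LPS and 735 ± 32.7 untreated (SD, n = 3 each), a fall of -0.78 (limma adjusted p = 3.09e-04). Mvk, mevalonate kinase, fell by 0.84 in Nfkbiz-/- cells and by 0.57 in wild-type cells (limma adjusted p = 2.26e-04 and 0.00454). Nsdhl, which removes the C4 methyl groups together with Msmo1 and Hsd17b7, fell in Nfkbiz-/- cells (-0.88, SE 0.23, limma adjusted p = 0.00981) and was at -0.58 in wild-type cells (limma adjusted p = 0.0889). Its wild-type value passed the threshold without wild-type LPS array 3 (-0.79), without Nfkbiz-/- LPS array 2 (-0.58) and, at -0.58, with the replicate number as a block (limma adjusted p = 0.00628, or 0.00344 with the block within genotype).

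Npc1, which moves cholesterol out of lysosomes, showed the largest fall among the 8 measured members that are not enzymes. It read 1089.9, 1588 and 1127 with LPS in Nfkbiz-/- cells, against 2992, 3834 and 3093 untreated (-1.39, limma adjusted p = 1.84e-05). In wild-type cells it read 1701, 1440.0 and 1485 with LPS, against 3019.8, 3634 and 3341 untreated (-1.11, limma adjusted p = 1.52e-04). Every LPS array was far below every untreated array in both genotypes, and the LPS arrays of the genotypes overlapped. Npc2, the soluble partner of Npc1 in the lysosome, did not pass the threshold in either genotype (0.10 in Nfkbiz-/- cells and 0.06 in wild-type cells).

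Ggps1, which makes geranylgeranyl diphosphate for protein prenylation and so stands on a side branch, was the one gene that rose in both genotypes. It averaged 553 ± 52.1 with LPS and 412 ± 24.3 untreated in Nfkbiz-/- cells (0.42, limma adjusted p = 0.00176), and 588 ± 1.80 with LPS and 435 ± 29.8 untreated in wild-type cells (0.44, limma adjusted p = 0.00208), as SD with n = 3 each. Hmgcs1 rose in wild-type cells (0.56, SE 0.15, limma adjusted p = 0.0148) and was at -0.05 in Nfkbiz-/- cells. The wild-type call of Hmgcs1 was lost without wild-type LPS array 3 (0.49) and without untreated wild-type array 1 (0.53).

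Among the genes that control SREBP2, Srebf2 itself passed the threshold in neither genotype (-0.06 in Nfkbiz-/- cells and 0.17 in wild-type cells). Scap, the escort of the SREBP2 precursor, averaged 695 ± 79.0 with LPS and 918 ± 33.4 untreated in Nfkbiz-/- cells (-0.41, limma adjusted p = 0.00868), and 599.6 ± 79.0 with LPS and 871 ± 31.7 untreated in wild-type cells (-0.55, limma adjusted p = 0.00217), as SD with n = 3 each. Mbtps1, the gene of the S1P protease, fell by 0.66 in Nfkbiz-/- cells and by 0.36 in wild-type cells (limma adjusted p = 1.33e-04 and 0.0109). With arrays centred on the 75th percentile, which moved the median of all genes to 0.28 in Nfkbiz-/- cells and 0.19 in wild-type cells, the call of Scap in Nfkbiz-/- cells (-0.20) and that of Mbtps1 in wild-type cells (-0.21) were lost. Under the same scaling Tm7sf2 (-0.24) lost its wild-type call, Idi1 (-0.26), Fdps (-0.14) and Insig1 (-0.12) lost theirs in Nfkbiz-/- cells, and Cyp51 (0.37), Hsd17b7 (0.63), Insig1 (0.24) and Srebf2 (0.32) passed as higher in wild-type cells.

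With LPS, Nfkbiz-/- cells were compared with wild-type cells directly. Of the 26 members 12 were lower and 0 higher at the threshold, where 4.87% of all genes tested were lower and 3.28% higher. The median over the members was -0.35, beside -0.01 over all genes. For 18 of the 26, every Nfkbiz-/- array lay below every wild-type array, an arrangement seen for 14.2% of all genes. For 0 members did every Nfkbiz-/- array lie above, an arrangement not counted over all genes. Of the 18 enzyme genes 9 were called lower, with a median over the enzymes of -0.42, as were 2 of 5 SREBP2 activation genes and 1 of 3 transport genes. All 12 had arrays that did not overlap between the genotypes, and 9 of the 12 also fell with LPS within Nfkbiz-/- cells. Neither count was made over all genes called lower, so neither sets the members apart from them.

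**Figure D3:**
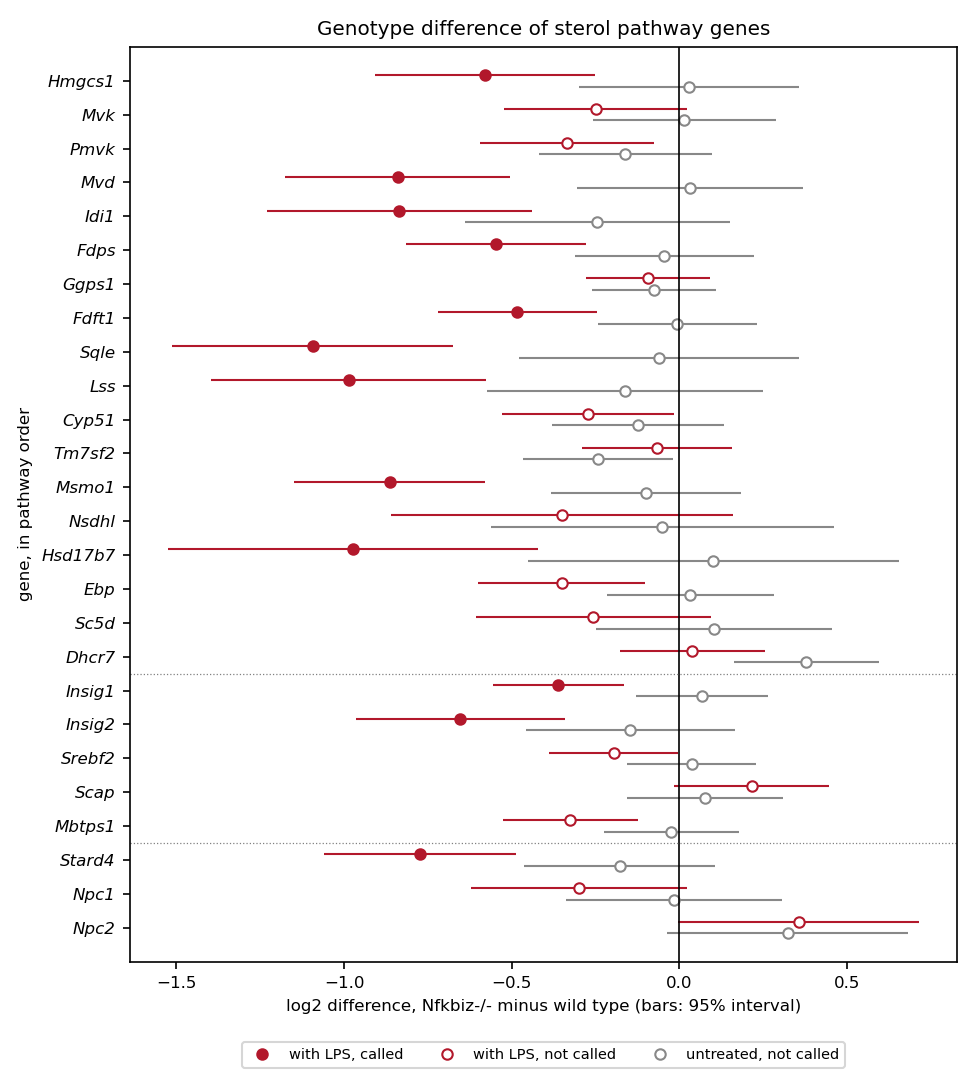
Log2 difference, Nfkbiz-/- minus wild type, for the 26 genes in pathway order, with LPS (red) and untreated (grey). Bars are 95% intervals, and filled points passed the threshold. The 12 filled red points lie between -1.09 (Sqle) and -0.36 (Insig1), and no grey point is filled.

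Hmgcs1, the cytosolic HMG-CoA synthase at the entry of the route, read 1340.5, 918 and 1454 on the Nfkbiz-/- LPS arrays, against 1658, 1799 and 1998 on the wild-type LPS arrays. All 3 Nfkbiz-/- arrays were lower, array 2 by the widest margin, while untreated arrays of both genotypes lay between 1137 and 1384. The difference with LPS was -0.58 (SE 0.15, limma adjusted p = 0.0368). It passed narrowly and failed in 8 of 12 fits with 1 array omitted, including those without Nfkbiz-/- LPS array 2 (-0.38) and without wild-type LPS array 3 (-0.51). In the other 6 of those fits the value lay between -0.64 and -0.58.

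Mvd, which decarboxylates mevalonate diphosphate to isopentenyl diphosphate, read 287, 288 and 249 in Nfkbiz-/- cells with LPS, against 491, 388 and 619 in wild-type cells with LPS. Untreated arrays lay between 609.8 and 796 in Nfkbiz-/- cells, against 693 to 741 in wild-type cells. LPS arrays of both genotypes were thus below the untreated ones, apart from wild-type LPS array 3, which reached the lowest untreated array of Nfkbiz-/- cells. The genotype difference with LPS was -0.84 (SE 0.15, limma adjusted p = 0.00736). The fall with LPS was -1.40 in Nfkbiz-/- cells (limma adjusted p = 2.38e-05) and -0.53 in wild-type cells (limma adjusted p = 0.0219), the second being lost in 5 of 12 fits without 1 array (-0.55 to -0.36), those without any 1 of the untreated wild-type arrays or without wild-type LPS array 1 or 2.

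Idi1, the isopentenyl diphosphate isomerase, read 546, 377 and 514 in Nfkbiz-/- cells with LPS, against 701, 798 and 1077 in wild-type cells with LPS. The Nfkbiz-/- arrays were all lower, and the wild-type values spread widely with array 3 on top. The difference was -0.84 (SE 0.18, limma adjusted p = 0.016) and was lost without wild-type LPS array 3 (-0.66). The fall of Idi1 with LPS in Nfkbiz-/- cells (-0.47, limma adjusted p = 0.0494) was lost in 9 of the 12 fits without 1 array, at -0.54 to -0.31. A second probe set of Idi1, and one of Fdft1, gave the same calls as the one kept.

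Fdps, which makes farnesyl diphosphate, read 911, 834 and 1046 in Nfkbiz-/- cells with LPS, against 1374, 1143 and 1576 in wild-type cells with LPS. The groups were close but did not overlap. The difference was -0.55 (SE 0.12, limma adjusted p = 0.019), and was lost without wild-type LPS array 1 (-0.53) or 3 (-0.44) and without Nfkbiz-/- LPS array 2 (-0.47). Within Nfkbiz-/- cells Fdps fell by 0.35 with LPS (limma adjusted p = 0.0358), a call lost in 5 of the 12 fits without 1 array (-0.38 to -0.27), those without any 1 of the untreated Nfkbiz-/- arrays or without Nfkbiz-/- LPS array 1 or 2.

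Fdft1, the squalene synthase that commits farnesyl diphosphate to sterols, read 1259, 1136 and 1208 in Nfkbiz-/- cells with LPS, against 1699.6, 1427 and 1947 in wild-type cells with LPS. The Nfkbiz-/- arrays were tightly grouped below all wild-type ones. The difference was -0.48 (SE 0.11, limma adjusted p = 0.0192), lost without wild-type LPS array 1 (-0.47) or 3 (-0.38) and without Nfkbiz-/- LPS array 2 (-0.44) or 3 (-0.49). With LPS Fdft1 fell by 0.73 in Nfkbiz-/- cells (limma adjusted p = 2.21e-04) and was at -0.25 in wild-type cells, where it passed without wild-type LPS array 3 (-0.36).

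Sqle, the squalene epoxidase that is a rate-limiting step of the sterol branch, showed the widest genotype gap of the 26 members. It read 396, 330.1 and 416 in Nfkbiz-/- cells with LPS, against 742, 637 and 1120.0 in wild-type cells with LPS, and untreated arrays of both genotypes lay between 845 and 1177. The Nfkbiz-/- LPS arrays were far below every other array, while wild-type LPS array 3 lay among the untreated ones. The difference was -1.09 (SE 0.19, limma adjusted p = 0.00569, 95% interval -1.51 to -0.68), and it stayed called in each fit without 1 array. With LPS Sqle fell by 1.40 in Nfkbiz-/- cells (limma adjusted p = 1.19e-04) and was at -0.37 in wild-type cells (limma adjusted p = 0.183), where it passed without wild-type LPS array 3 (-0.60).

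Lss, the lanosterol synthase that closes the sterol rings, read 203, 193 and 254 in Nfkbiz-/- cells with LPS, against 386, 337 and 594 in wild-type cells with LPS. Untreated arrays were higher than both, at 602 to 663 in Nfkbiz-/- cells and 617 to 829.9 in wild-type cells. The difference with LPS was -0.99 (SE 0.19, limma adjusted p = 0.00898), and it stayed called in each fit without 1 array. Lss fell by 1.57 with LPS in Nfkbiz-/- cells (limma adjusted p = 4.5e-05) and by 0.75 in wild-type cells (limma adjusted p = 0.0103).

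Msmo1, the C4-methylsterol oxidase, had the lowest adjusted p of the members. It read 1311, 922 and 1278 in Nfkbiz-/- cells with LPS, against 2095, 1987 and 2236 in wild-type cells with LPS, with 1630.2 to 2006 on the untreated Nfkbiz-/- arrays and 1845 to 2103 on the untreated wild-type arrays. The wild-type LPS arrays thus lay at or above the untreated level, and the Nfkbiz-/- LPS arrays below it. The difference was -0.86 (SE 0.13, limma adjusted p = 0.00248) and stayed called in each fit without 1 array. Msmo1 fell by 0.64 with LPS in Nfkbiz-/- cells (limma adjusted p = 0.0019) and was at 0.12 in wild-type cells.

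Hsd17b7, a sterol 3-keto reductase, read 529.6, 295 and 599.9 in Nfkbiz-/- cells with LPS, against 752, 750.4 and 1259 in wild-type cells with LPS. Nfkbiz-/- array 2 and wild-type array 3 stood apart from their groups in opposite directions, and the groups did not overlap. The difference was -0.97 (SE 0.25, limma adjusted p = 0.0365), lost in 7 of the 12 fits without 1 array, at -0.66 without Nfkbiz-/- LPS array 2, -0.73 without wild-type LPS array 3, -1.10 without wild-type LPS array 1 and -0.97 in the other 4. Within Nfkbiz-/- cells Hsd17b7 was at -0.60 with LPS (limma adjusted p = 0.0706), and with the replicate number as a block it passed (limma adjusted p = 0.0217). It also passed without wild-type LPS array 3 (-0.60) and without Nfkbiz-/- LPS array 3 (-0.80).

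**Figure D4:**
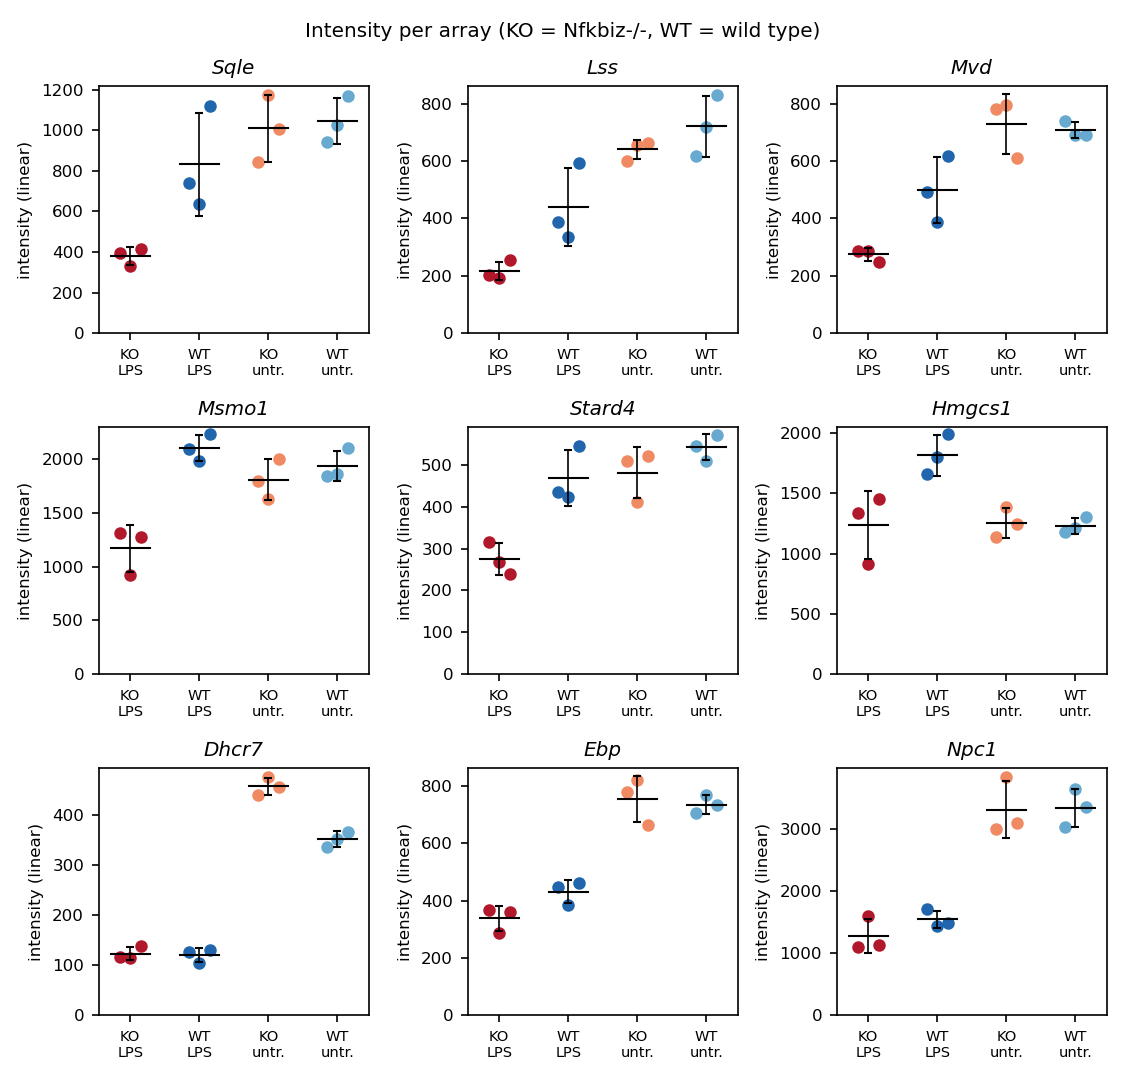
Linear intensity of 9 members on each array (points), with the mean (line) and SD (bar) of each group of 3. Sqle, Lss, Mvd, Msmo1 and Stard4 are lowest in the Nfkbiz-/- LPS group without overlap with the wild-type LPS group. Dhcr7 and Npc1 are low in both LPS groups, which overlap.

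The remaining enzymes did not pass in this comparison. Ebp (-0.35, limma adjusted p = 0.085), Mvk (-0.25), Ggps1 (-0.09) and Cyp51, the lanosterol demethylase (-0.27), had non-overlapping arrays, while Pmvk, phosphomevalonate kinase (-0.33), Tm7sf2, a sterol C14-reductase (-0.07), Nsdhl (-0.35), Sc5d, the sterol C5-desaturase (-0.26), and Dhcr7 (0.04) had overlapping ones. Ebp passed without wild-type LPS array 2 (-0.43), and Pmvk without Nfkbiz-/- LPS array 3 (-0.45).

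Both INSIG genes were lower. Insig1, itself a target of SREBP2, read 2152, 1742 and 2152 in Nfkbiz-/- cells with LPS, against 2549.8, 2497 and 2683 in wild-type cells with LPS (-0.36, SE 0.09, limma adjusted p = 0.0302). Insig2, which is regulated apart from SREBP2, read 463, 355 and 499 in Nfkbiz-/- cells with LPS, against 636, 600.0 and 836 in wild-type cells with LPS (-0.65, SE 0.14, limma adjusted p = 0.0165). In both genes array 2 was the lowest Nfkbiz-/- array and array 3 the highest wild-type array. The call of Insig1 was lost without wild-type LPS array 1 (-0.37) or 3 (-0.33) and without Nfkbiz-/- LPS array 2 (-0.26), and that of Insig2 without wild-type LPS array 3 (-0.51). Against untreated Nfkbiz-/- cells Insig1 fell (-0.34, limma adjusted p = 0.00954), and Insig2 was at -0.36 (limma adjusted p = 0.0571), which passed with the replicate number as a block (limma adjusted p = 0.0139), without wild-type LPS array 3 (-0.36) and without Nfkbiz-/- LPS array 3 (-0.46).

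Srebf2 averaged 2164 ± 21.4 in Nfkbiz-/- cells with LPS and 2486 ± 244 in wild-type cells with LPS (SD, n = 3 each), a difference of -0.20 that did not pass (limma adjusted p = 0.22), although the arrays did not overlap. Mbtps1 was at -0.33 (limma adjusted p = 0.0516) and passed without wild-type LPS array 2 (-0.41) and without untreated Nfkbiz-/- array 3 (-0.33). Scap was at 0.21 and did not pass. Of the genes that regulate the pathway, the called differences were thus those of the INSIG genes, the retention proteins.

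Stard4, a soluble carrier that moves cholesterol between membranes, read 315, 267 and 239.7 in Nfkbiz-/- cells with LPS, against 436, 425 and 545 in wild-type cells with LPS. The lowest Nfkbiz-/- values were on arrays 3 and 2, and the groups were well apart. The difference was -0.77 (SE 0.13, limma adjusted p = 0.00486) and stayed called in each fit without 1 array. With LPS Stard4 fell by 0.81 in Nfkbiz-/- cells (limma adjusted p = 3.81e-04) and was at -0.22 in wild-type cells, where it passed with array weights (-0.29). Npc1 (-0.30, limma adjusted p = 0.27) and Npc2 (0.36, limma adjusted p = 0.231) did not pass, and Npc1 did so without Nfkbiz-/- LPS array 2 (-0.47).

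The number of members called lower depended on which arrays entered the fit, and 2 of the LPS arrays stood out at these genes. Mean log2 intensity over the 18 enzymes was 8.80, 8.50 and 8.91 on the Nfkbiz-/- LPS arrays, against 9.18, 9.09 and 9.47 on the wild-type LPS arrays, with 9.37 to 9.44 untreated in Nfkbiz-/- cells and 9.38 to 9.53 untreated in wild-type cells. Nfkbiz-/- array 2 was the lowest and wild-type array 3 the highest of the LPS arrays, and the genotypes stayed apart with either left out. Without wild-type LPS array 3 the count called lower was 5 (Mvd, Sqle, Lss, Msmo1 and Stard4), without wild-type LPS array 1 it was 7, without Nfkbiz-/- LPS array 2 it was 8, and without both wild-type array 3 and Nfkbiz-/- array 2 it was again 5. With only the 6 LPS arrays in the fit it was 3 (Sqle, Msmo1 and Stard4). In these fits fewer arrays entered the estimate of the spread, and the count over all genes moved too, to 712 without wild-type LPS array 3.

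Wild-type LPS array 3 also stood out in its interferon-stimulated genes, while Nfkbiz-/- LPS array 2 did not. Over 10 such genes the mean log2 intensity was 12.73, 12.81 and 13.01 on the Nfkbiz-/- LPS arrays, against 11.58, 12.58 and 9.62 on the wild-type LPS arrays. Wild-type array 3, the highest for the enzymes, was thus the lowest for interferon-stimulated genes. Among the Nfkbiz-/- LPS arrays, array 3 was the highest for both. Untreated Nfkbiz-/- arrays were at 8.69, 8.52 and 10.57, against 8.25, 8.37 and 7.45 on untreated wild-type arrays. The part of interferon-stimulated expression in the enzyme difference was not tested.

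**Figure D5:**
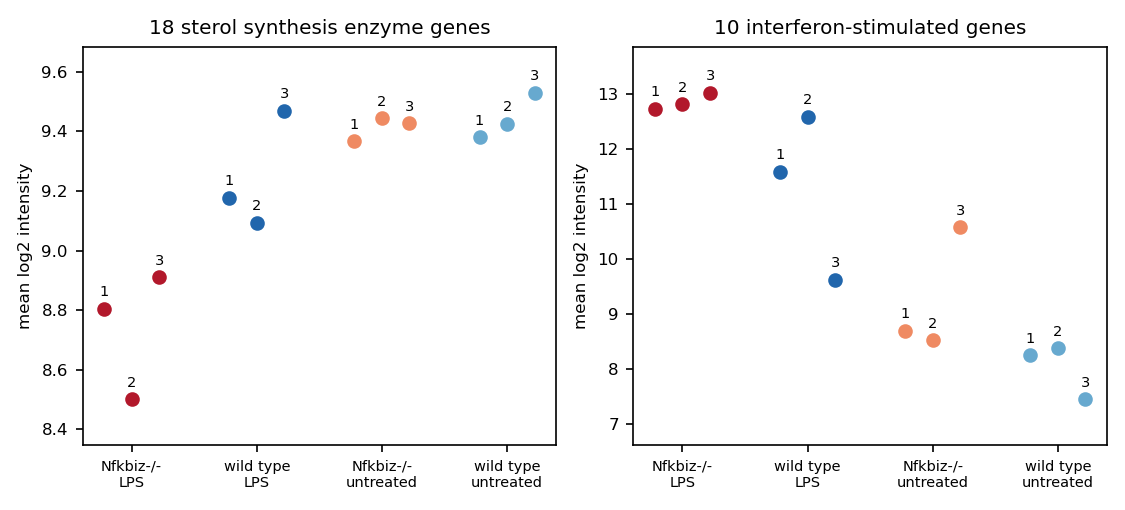
Mean log2 intensity per array (points, numbered by replicate) of the 18 enzyme genes (left) and of 10 interferon-stimulated genes (right), with the 4 groups on the horizontal axis. Wild-type LPS array 3 is the highest LPS array on the left, at 9.47, and the lowest on the right, at 9.62.

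Markers of other cell types also varied between arrays. The summed intensity of the 5 mast cell markers, all of them measured, ran from 567 to 2278 on the Nfkbiz-/- LPS arrays, against 579 to 891 on the wild-type LPS arrays. The lowest Nfkbiz-/- array there was array 2, at the wild-type level, which was also the lowest for the enzymes. The 5 measured B cell markers summed to 835 to 1221 in Nfkbiz-/- cells with LPS, against 902 to 1126 in wild-type cells with LPS, and the 4 dendritic cell markers summed to 467 to 482 against 464 to 887. The 887 was on wild-type LPS array 3, the highest LPS array for the enzymes, against 496 and 464 on arrays 1 and 2. Untreated wild-type array 3 was also high in these markers, at 1580 against 592 and 600, and had the highest untreated enzyme mean (9.53). The 4 measured T cell markers were higher on every Nfkbiz-/- LPS array, at 442 to 471 against 406 to 425 in wild-type cells. The 5 neutrophil markers summed to less on every Nfkbiz-/- LPS array, at 2791 to 3566 against 3604 to 4542, most of which was Mmp8, while their mean log2 intensity overlapped at 7.36 to 7.56 against 7.47 to 7.48. The 5 mesothelial markers summed to 633 to 709 against 673 to 702. The 9 macrophage markers summed to 53753 to 56788 in Nfkbiz-/- cells with LPS, against 54197 to 54324 in wild-type cells with LPS. The part of these cells in the sterol gene differences was not tested.

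Without LPS no member was called higher or lower in Nfkbiz-/- cells by limma, where 0.0351% of all genes tested were higher and 0.0401% lower. At an unadjusted p under 0.05 there were 2 members, 1 of them lower, a count not made over all genes. The lowest adjusted p was that of Dhcr7 (0.38, limma adjusted p = 0.294), whose Nfkbiz-/- arrays all lay above the wild-type ones. The median over the 26 members was -0.02, beside -0.03 over all genes, and the values ran from -0.24 to 0.38. The 95% intervals, not adjusted for the number of genes, reached 0.18 to 0.55 to either side of each value. A call at the adjusted threshold needed a larger difference than that, so differences of this size and larger could have been missed. No other method of testing was run on this comparison, and none of the alternative settings of the limma fit called a member.

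The difference of the LPS responses, Nfkbiz-/- minus wild type, asks whether LPS moved a gene differently in the 2 genotypes. It was negative for 23 of the 26 members and for 9188 of the 19938 genes, with a median of -0.37 over the members beside 0.02 over all genes. None of the members passed the threshold, where 0.446% of all genes passed as lower and 0.301% as higher. At an unadjusted p under 0.05 there were 15 members, all lower, but genes at that level were not counted over all genes. The lowest adjusted p was that of Msmo1 (-0.76, SE 0.18, limma adjusted p = 0.0938), followed by Mvd (-0.87, SE 0.22, limma adjusted p = 0.108) and Sqle (-1.03, SE 0.27, limma adjusted p = 0.119). Hsd17b7 had the largest value (-1.08, SE 0.36, limma adjusted p = 0.209). The intervals were wider than for a comparison of 2 groups, at 0.26 to 0.78 to either side.

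The pairing of arrays bore on this test. In Nfkbiz-/- cells LPS and untreated arrays of the same number deviated together, and with a block for each number within each genotype 2 members passed, Mvd (-0.87, limma adjusted p = 0.0432) and Msmo1 (-0.76, limma adjusted p = 0.0231). With 1 block per number across both genotypes Msmo1 passed (limma adjusted p = 0.044). With array weights Mvd (-0.90) and Msmo1 (-0.68) passed, and without wild-type LPS array 2 Mvd (-1.04) and Sqle (-1.21) did. The count over all genes rose too without wild-type LPS array 2, to 365, against 89 lower and 60 higher with all 12 arrays. The adjusted p of the difference of responses in the fits that left out 1 array ran from 0.0675 to 0.213 for Msmo1 and from 0.0199 to 0.225 for Mvd.

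The other genes around the pathway were read from 3 lists. Of 13 genes that use isoprenoids, 2 rose and 5 fell with LPS in Nfkbiz-/- cells, where 21.9% of all genes rose and 23.8% fell, and 2 rose and 3 fell in wild-type cells, where 9.53% rose and 18.5% fell. Fnta, the shared alpha subunit of the farnesyl and type I geranylgeranyl transferases, fell by 0.74 in Nfkbiz-/- cells and by 0.68 in wild-type cells. Rabggta, a subunit of the Rab geranylgeranyl transferase, fell by 0.81 in Nfkbiz-/- cells and by 0.52 in wild-type cells. Fntb, the beta subunit of the farnesyl transferase, fell by 0.53 in Nfkbiz-/- cells, and Chm, the Rab escort protein, rose by 0.51 in Nfkbiz-/- cells and 0.50 in wild-type cells. With LPS, 1 of the 13 genes was lower in Nfkbiz-/- than in wild-type cells and none was higher, where 4.87% and 3.28% of all genes were. It was Nus1, a subunit of the enzyme that starts dolichol synthesis, at 3004, 2012 and 3290.2 against 4325, 4344 and 4279.9 in wild-type cells (-0.67, SE 0.14, limma adjusted p = 0.0154). Its call was lost without wild-type LPS array 1 (-0.67) or 3 (-0.68). Nus1 rose with LPS in wild-type cells (0.52), a call lost without wild-type LPS array 1 (0.52) or untreated wild-type array 2 (0.50) or 3 (0.51), and was at 0.02 in Nfkbiz-/- cells.

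Of 11 genes of sterol egress and oxysterols, 2 rose and 8 fell with LPS in Nfkbiz-/- cells (21.9% and 23.8% of all genes), and 3 rose and 6 fell in wild-type cells (9.53% and 18.5% of all genes). Between the genotypes with LPS, 1 of the 11 was higher and 1 lower in Nfkbiz-/- cells (3.28% and 4.87% of all genes). Ch25h, the cholesterol 25-hydroxylase, rose most, reading 1165, 5338 and 2854 with LPS in Nfkbiz-/- cells, against 70.6, 96.4 and 127 untreated (4.78, SE 0.54, limma adjusted p = 3.16e-05). In wild-type cells it read 818, 1999 and 480.2 with LPS, against 94.0, 71.9 and 73.5 untreated (3.54, SE 0.54, limma adjusted p = 4.26e-04). The genotypes overlapped with LPS (1.50, SE 0.54, limma adjusted p = 0.12), and the comparison passed without wild-type LPS array 2 (2.06) or without Nfkbiz-/- LPS array 1 (2.08). In each genotype the LPS array with the most Ch25h, array 2, was the one with the lowest enzyme mean. In wild-type cells the array with the least Ch25h, array 3, was the one with the highest enzyme mean. In Nfkbiz-/- cells this was not so, since array 1 had the least Ch25h and array 3 the highest enzyme mean (8.91, against 8.80 on array 1). With 3 arrays in a group this order is a description, and the part of Ch25h in the enzyme levels was not tested.

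Of the genes that take up, release or export cholesterol, Nceh1, Scarb1, Abcg1 and Lipa fell in both genotypes, and Abca1 was called in neither. Nceh1, a cholesteryl ester hydrolase, fell by 2.15 in Nfkbiz-/- cells and by 2.83 in wild-type cells, and was higher in Nfkbiz-/- cells with LPS (678, 637 and 852 against 451, 456 and 379 in wild-type cells, 0.75, SE 0.14, limma adjusted p = 0.00807). Scarb1, a receptor for high density lipoprotein, fell by 1.43 in Nfkbiz-/- cells and by 1.61 in wild-type cells. The exporter gene Abcg1 fell by 1.25 in Nfkbiz-/- cells and by 1.35 in wild-type cells, and Lipa, lysosomal acid lipase, fell by 1.06 in Nfkbiz-/- cells and by 1.37 in wild-type cells. The Nfkbiz-/- call of Lipa was lost without Nfkbiz-/- LPS array 1 (-0.88) or 3 (-0.83) and without untreated Nfkbiz-/- array 2 (-0.76).

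The exporter gene Abca1, a target of the oxysterol-activated liver X receptors, read 5026, 1668 and 4728 in Nfkbiz-/- cells with LPS, against 6259, 6217 and 6539.9 in wild-type cells with LPS. All Nfkbiz-/- arrays were lower, array 2 by far, and the difference did not pass (-0.89, SE 0.32, limma adjusted p = 0.116). Nr1h3, the gene of liver X receptor alpha, fell by 0.51 with LPS in Nfkbiz-/- cells (limma adjusted p = 0.00299) and was at -0.27 in wild-type cells, where it passed without untreated wild-type array 3 (-0.37). With LPS the genotypes differed by 0.20 at Nr1h3, which did not pass.

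Mylip, a ubiquitin ligase gene induced by liver X receptors, was the one gene among the 26 members and the 3 neighbouring lists whose LPS response differed between the genotypes at the threshold. It read 521, 529 and 578 in Nfkbiz-/- cells with LPS, against 715, 1096 and 741 untreated (-0.62, SE 0.15, limma adjusted p = 0.00523). In wild-type cells it read 1212, 1125 and 1395 with LPS, against 636, 545 and 545 untreated (1.11, SE 0.15, limma adjusted p = 1.6e-04). The groups with and without LPS did not overlap in either genotype, and the direction was opposite. The difference of responses was -1.73 (SE 0.21, limma adjusted p = 0.00463), and with LPS Mylip was lower in Nfkbiz-/- cells by -1.19 (SE 0.15, limma adjusted p = 9.08e-04).

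Of 7 genes of sterol-regulated degradation in the endoplasmic reticulum, 1 rose and 2 fell with LPS in each genotype, shares near those over all genes in Nfkbiz-/- cells (21.9% and 23.8%) and in wild-type cells (9.53% and 18.5%). In Nfkbiz-/- cells the ubiquitin ligase gene Rnf139 rose by 0.74, and Erlin2, a membrane scaffold gene, and Ube2g2, a ubiquitin-conjugating enzyme gene, fell by 0.39 each, the last call being lost in 4 of the 12 fits without 1 array (-0.39 to -0.31), those without Nfkbiz-/- LPS array 1 or 3 or untreated Nfkbiz-/- array 1 or 2. In wild-type cells Ufd1, a cofactor of the extraction ATPase p97, rose by 0.41, and Erlin1 (-0.47) and Erlin2 (-0.23) fell, Erlin1 losing its call without wild-type LPS array 2 (-0.46) or 3 (-0.44) or untreated wild-type array 1 (-0.42) or 3 (-0.46), and Erlin2 without wild-type LPS array 2 (-0.19) or untreated wild-type array 1 (-0.19). With LPS, 1 of the 7 genes was higher and 1 lower in Nfkbiz-/- than in wild-type cells, where 3.28% and 4.87% of all genes were. Rnf139 was higher in Nfkbiz-/- cells with LPS (938, 1129.8 and 1106 against 667, 856 and 607 in wild-type cells, 0.59, SE 0.13, limma adjusted p = 0.0153). Ufd1 was lower there (580.2, 499 and 536 against 709, 656 and 783 in wild-type cells, -0.41, SE 0.10, limma adjusted p = 0.0251). The call of Rnf139 was lost without wild-type LPS array 1 (0.55) or 3 (0.48) or Nfkbiz-/- LPS array 3 (0.55), and that of Ufd1 without wild-type LPS array 1 (-0.42) or 3 (-0.34) or Nfkbiz-/- LPS array 2 (-0.36) or 3 (-0.41).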

How the data were processed

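Expression was measured in 12 samples on Affymetrix whole-transcript arrays. The authors deposited 1 linear intensity per probe set and array. The submitters' processing notes name RMA and Affymetrix Expression Console 1.1, without settings. RMA as a method includes background correction, quantile normalization between arrays and a summary over probes, which narrows differences in overall brightness and compresses those of dim genes. The deposited values ran from 6.96 to 22642. How many arrays there are limits the precision, since arrays give no read depth.

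From these, log2 of each intensity was taken. By the platform annotation of GEO, 21789 of the 35556 probe sets carry 1 symbol, 1621 carry several and 12146 carry none. The probe set with the highest mean was kept per gene, also for the 999 genes with several, leaving 19938 genes. Samples were grouped by their titles. limma 3.58.1 in R 4.3.3 was fitted to the means of 4 groups over all 12 arrays (lmFit and eBayes, two-sided, 8 residual degrees of freedom), for 5 comparisons, with Benjamini-Hochberg adjustment over all genes and calls at an adjusted p under 0.05. The steps were tested on simulated data.

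All measured members were named. From 3 neighbouring lists up to 4 called genes with the largest difference per comparison were named, plus Ch25h, Abca1 and Nr1h3. The members, lists and rules were chosen with earlier results of these data known. Replicate numbers were checked as pairs: LPS and untreated arrays of the same number had deviations correlated at 0.32 to 0.57 in Nfkbiz-/- cells, and at -0.07 to 0.36 in wild-type cells, so the numbers pair the Nfkbiz-/- arrays on the data and not by the labels. No array batch or scan date was in the tables used. Alternatives changed the array scaling, the filter on dim genes, the variance model, array weights, the block, the choice of probe set, the arrays in the fit and each array in turn. The block within genotype, and leaving out 2 arrays together, were chosen after the data were seen.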

Additional observations from a re-analysis of the deposited data

Results flagged for a closer look

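Mylip, a ubiquitin ligase gene induced by liver X receptors, stands out because its response to LPS ran in opposite directions in the 2 genotypes and the difference itself passed the test. The difference of responses, Nfkbiz-/- minus wild type, was -1.73 on the log2 scale (SE 0.21, limma adjusted p = 0.00463), and it kept its direction and its call in all settings run. The fall in Nfkbiz-/- cells and the rise in wild-type cells held for all 3 arrays of each group. No cause was tested.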

How the results depend on the processing

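No called value changed sign under any setting run. Of the values of single genes, 3349 kept their side of the threshold when 1 array was left out, 92 lost a call and 39 gained one. Under the other settings 2605 kept theirs, 53 lost a call and 63 gained one. Members called higher in wild-type cells with LPS numbered 6 with arrays centred on the 75th percentile, against 2, where the median of all genes also moved to 0.19. Members called lower in Nfkbiz-/- than in wild-type cells with LPS numbered 3 with only the 6 arrays compared and 5 without wild-type LPS array 3 and Nfkbiz-/- LPS array 2 together, against 12, and fewer arrays entered both fits. With array weights this count was 15, with Ebp (-0.33), Mbtps1 (-0.34) and Npc1 (-0.50) gained. Array weights also gave 13 members lower with LPS in wild-type cells, against 9, with Fdft1 (-0.25), Sqle (-0.50), Nsdhl (-0.74) and Stard4 (-0.29) gained. In Nfkbiz-/- cells they gave 15, against 16. For the difference of responses, members called lower numbered 2 with array weights, 1 with the replicate block and 2 with the replicate block within genotype, against 0; apart from this and from Hsd17b7 and Insig2 in Nfkbiz-/- cells and Nsdhl in wild-type cells, the block changed no call of a member. With 1 array left out, members called higher in wild-type cells numbered 1 to 2 and lower 8 to 12, in Nfkbiz-/- cells 1 higher and 14 to 19 lower, between genotypes with LPS 5 to 13 lower, between untreated genotypes 0, and for the difference of responses 0 to 2 lower. Where quantile normalization was applied again, Idi1 and Fdps lost their calls in Nfkbiz-/- cells, and Mvd and Tm7sf2 in wild-type cells. This left 14 members called lower with LPS in Nfkbiz-/- cells, against 16, and 7 in wild-type cells, against 9. With arrays centred on the 75th percentile 12 were called lower in Nfkbiz-/- cells and 7 in wild-type cells. With 3 arrays a group, 95% intervals of 0.18 to 0.55 to either side limit what a single gene can show.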
